A study of Sus scrofa with 5 samples.

Results

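The nuclei described here, from the pig dorsal root ganglion (DRG), were picked by 6 genes and labelled as peptidergic neurons. They are called ADCYAP1/GAL nuclei after the leading 2 genes. A nucleus was taken when unique molecular identifiers (UMIs, 1 per captured RNA molecule) of ADCYAP1, GAL, FRK, RGS8, NPNT and BDKRB2 together came to at least 3 and to at least 5 per 10000 UMIs of that nucleus. It also had to hold fewer than 3 UMIs of IL31RA and fewer than 2 of TRPM8, which mark other small-fibre neurons. The rule took 290 of 2189 nuclei, or 13.2% (exact 95% interval 11.9% to 14.7%). They were set against the 1389 other nuclei with at least 2000 UMIs.

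Single-nucleus RNA sequencing was done on lumbar and thoracic ganglia from male pigs of the Landrace breed (5 animals), with 80 mg of tissue per sample and neither treatment nor age named in the labels, with nuclei enriched for neurons by a density gradient or with antibodies to NeuN. All nuclei were deposited in 1 table whose barcodes end in 6 different numbers, read as 6 libraries. These could not be tied to animals or isolation protocols, so the table is 1 pooled sample without replicates and no p-value was computed. Intervals below are exact 95% intervals for counting error only, and libraries are used as batches whose origin is not known.

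Nociceptors are the DRG neurons that report tissue damage, heat and irritants, and many of them have thin unmyelinated axons, the C fibres. Peptidergic nociceptors release neuropeptides such as substance P, made from TAC1, from both their spinal and their skin endings. ADCYAP1 encodes PACAP, a peptide that acts through adenylyl cyclase, and GAL encodes galanin, a peptide best known in rodent DRG for its increase after nerve injury. FRK is a Src-family tyrosine kinase, RGS8 speeds the shut-off of G proteins, NPNT is the matrix protein nephronectin, and BDKRB2 is the constitutive receptor for bradykinin, an inflammatory peptide that excites nociceptors.

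In the pig assembly Sscrofa11.1, RefSeq places ADCYAP1 on chromosome 6 from 105414628 to 105422294 and GAL on chromosome 2 from 4351113 to 4357167. FRK lies on chromosome 1 from 81606599 to 81714543 and RGS8 on chromosome 9 from 123937721 to 124053927. NPNT lies on chromosome 8 from 115768963 to 115861170 and BDKRB2 on chromosome 7 from 117438622 to 117472005. All 6 are protein-coding genes on different chromosomes.

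The 290 nuclei held 1889885 UMIs, 800 to 51638 per nucleus with a median of 5303.5, against a median of 6473 in the other nuclei. Libraries 1, 3, 4, 5 and 6 gave 76, 127, 4, 43 and 40 of them, while library 2, with 13 nuclei in all, gave 0. These were 11.14%, 15.8%, 5.33%, 13.0% and 14.1% of the nuclei of those 5 libraries. The share thus lay between 11.14% and 15.8% in the 4 larger libraries. These shares count nuclei of any depth, and shallow nuclei were not equally common. The other nuclei of at least 2000 UMIs made up 50.4%, 63.5%, 76.7% and 77.0% of libraries 1, 3, 5 and 6. The part of depth in the shares was not tested. The libraries differed widely in mitochondrial RNA. Its median share of the UMIs in ADCYAP1/GAL nuclei was 3.74%, 26.2%, 3.42%, 0.157% and 0.0759% in libraries 1, 3, 4, 5 and 6. In other nuclei it was 4.60%, 20.8%, 1.92%, 0.107% and 0.0562%. No barcode occurred in more than 1 library.

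The values that chose the nuclei are a description of the rule. Summed over the 6 genes they ranged from 3 to 85 UMIs with a median of 6. ADCYAP1 was found in 240 of the 290 nuclei, GAL in 201, FRK in 147, NPNT in 140, RGS8 in 124 and BDKRB2 in 75. ADCYAP1 gave most of the 6 genes' UMIs in 88 nuclei, GAL in 58, RGS8 in 30, NPNT in 22, FRK in 21 and BDKRB2 in 2, and in 69 nuclei the lead was tied. Both peptide genes, ADCYAP1 and GAL, were found in 166 nuclei. Only 13 nuclei passed on a single gene, and 205 of the 290 had at least 3 of the 6 genes. These nuclei held 59.6% of all GAL UMIs of the deposited matrix, against 51.6% of NPNT, 45.5% of ADCYAP1, 38.8% of FRK, 33.5% of RGS8 and 28.9% of BDKRB2 UMIs.

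The borders of the rule ran through a continuous range of values. There were 51 nuclei with exactly 3 UMIs of the 6 genes just inside it, and 61 nuclei with exactly 2 UMIs that met the other conditions just outside. TAC1, which the rule did not use, stood at 2038 counts per 1000000 UMIs (CPM) in those just inside and at 2230 CPM in those just outside. At the rate limit, 16 nuclei lay just inside at 5 to 6 per 10000 UMIs and 20 just outside at 4 to 5. The limits on IL31RA and TRPM8 removed 69 of the 359 nuclei that had passed the sum and the rate, and 61 of these had 3 or more IL31RA UMIs. Among the nuclei kept, 187 had 0 UMIs of IL31RA, 70 had 1 and 33 had 2.

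**Figure D1:**
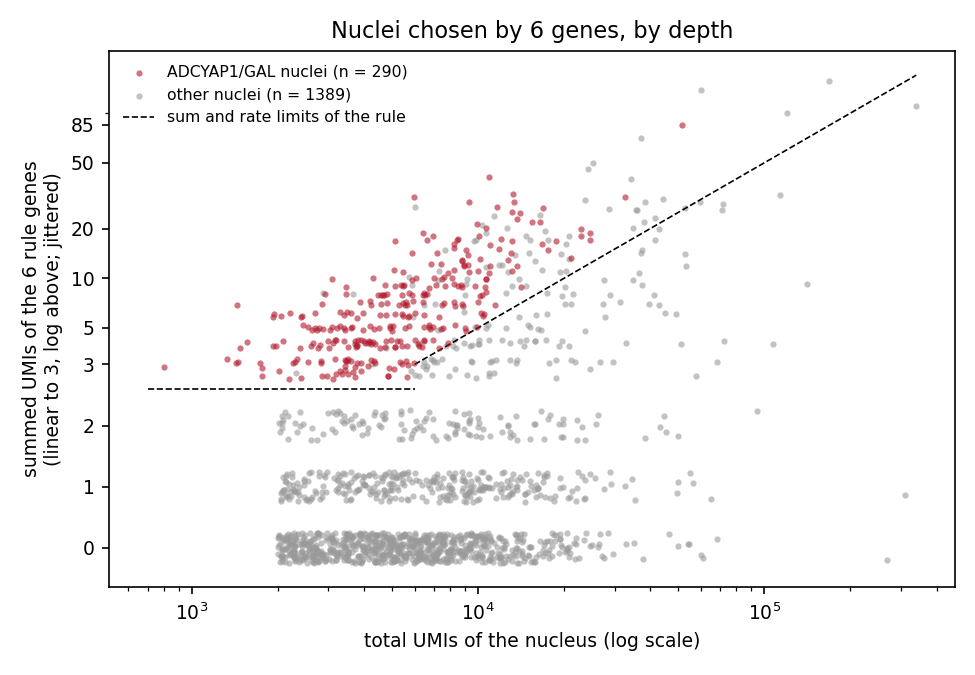
Summed UMIs of the 6 rule genes (y axis, linear to 3 and logarithmic above, jittered) against all UMIs of the nucleus (x axis, logarithmic); red points are the 290 ADCYAP1/GAL nuclei, grey points the 1389 other nuclei with at least 2000 UMIs, and the dashed lines are the limits of 3 UMIs and 5 per 10000 UMIs. Grey points above the lines are nuclei with 3 or more IL31RA or 2 or more TRPM8 UMIs.

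To describe how far the 6 genes occurred together, each gene was measured in nuclei chosen by the other 5 under the same limits. The 6 genes came with the rule, which was chosen with earlier results of these data known. Their ratios are therefore no independent check that the genes belong together. All 6 were then at least 2-fold higher in the chosen nuclei than in the rest, and higher within each of the 4 libraries with enough nuclei. GAL had the largest ratio and BDKRB2 the smallest. The 5 remaining genes chose between 192 nuclei (without ADCYAP1) and 278 nuclei (without BDKRB2), each of them among the 290.

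GAL in the 225 nuclei chosen by the other 5 genes stood at 553, 278, 75.0 and 119 CPM in libraries 1, 3, 5 and 6, against 54.7, 44.2, 15.0 and 19.997 CPM in the rest of those libraries. The chosen nuclei were thus higher in every library, while the level itself differed between libraries 1 and 3 and libraries 5 and 6. Over all libraries this was 270.7 against 32.5 CPM, a ratio of 8.33 (7.30 to 9.50). ADCYAP1 in its 192 nuclei was at 487, 415.5, 216 and 166 CPM in libraries 1, 3, 5 and 6, against 96.8, 83.8, 48.0 and 51.3 CPM in the rest, with a pooled ratio of 4.78 (4.30 to 5.31). The ranges of the chosen and the remaining nuclei did not overlap across libraries for ADCYAP1 or GAL.

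NPNT reached 134 CPM in 261 chosen nuclei against 20.2 CPM in the rest, 6.63-fold (5.56 to 7.89), and was the most even of the 6 between libraries at 103 to 151 CPM. FRK was at 145 against 35.5 CPM, 4.08-fold (3.49 to 4.76), and BDKRB2 at 43.5 against 16.9 CPM, 2.57-fold (1.97 to 3.33). RGS8 was at 118.5 against 43.5 CPM, 2.72-fold (2.31 to 3.20), and ran opposite to GAL across libraries: 36.2, 132, 145 and 190 CPM in the chosen nuclei of libraries 1, 3, 5 and 6, against 1.84, 24.9, 57.6 and 88.5 CPM in the rest. The ratio for RGS8 therefore depended on the library mix, with a log2 ratio of 4.20 in library 1 and 1.11 in library 6. Without library 6 the pooled log2 ratio was 2.07 in place of 1.45 for RGS8, and 2.63 in place of 2.03 for FRK.

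Counted as nuclei with at least 1 UMI after every nucleus was thinned to 2000 UMIs, GAL was found in 35.0% of the nuclei chosen by the other 5 genes and 6.77% of the rest, and ADCYAP1 in 45.7% against 12.4%. Without thinning the shares were 60.4% against 15.5% for GAL and 74.0% against 27.7% for ADCYAP1. NPNT after thinning was found in 20.5% against 3.81%, FRK in 23.3% against 5.23%, RGS8 in 17.3% against 5.86% and BDKRB2 in 7.95% against 2.57%.

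**Figure D2:**
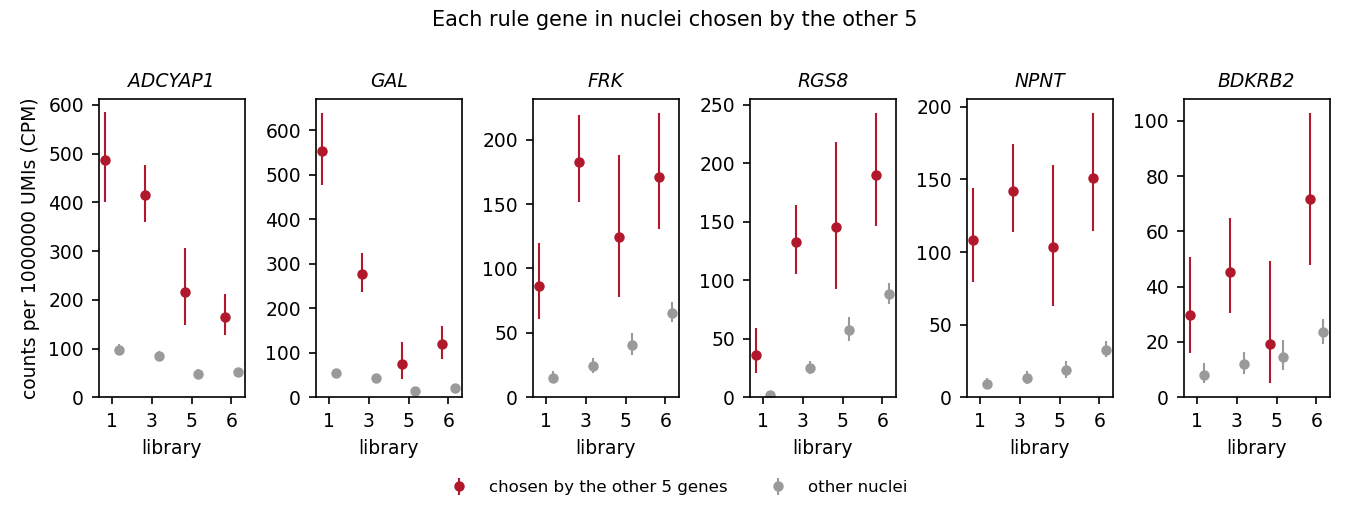
CPM (y axis) of each of the 6 rule genes in libraries 1, 3, 5 and 6 (x axis); red points are nuclei chosen by the other 5 genes, grey points the remaining nuclei with at least 2000 UMIs, bars are exact 95% Poisson intervals. Red lies above grey in each library for each gene, with overlapping bars for BDKRB2 in library 5 (19.2 against 14.6 CPM).

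The label of peptidergic C-fibre neurons was set beside genes outside the rule. TAC1, NECTIN3 and OPRK1 are markers that came with the label, chosen with earlier results of these data known. Their levels are therefore no independent check of it. TAC1, the substance P precursor gene on chromosome 9 from 77197403 to 77206529, was found in 277 of the 290 nuclei. It stood at 7987, 3771, 858 and 649 CPM in libraries 1, 3, 5 and 6, against 2714, 1529, 331 and 305 CPM in the other nuclei of those libraries. The ADCYAP1/GAL nuclei were higher in every library, and libraries 1 and 3 were higher than libraries 5 and 6 in both kinds of nuclei. Pooled, TAC1 was at 3711 against 1213 CPM, 3.06-fold (2.98 to 3.14). The pooled log2 ratio of 1.61 was above those within libraries 1, 3, 5 and 6, which were 1.56, 1.30, 1.38 and 1.09.

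Free RNA can give UMIs in nuclei that do not express a gene, so shares of nuclei need a baseline. After thinning, TAC1 was found in 83.7% of ADCYAP1/GAL nuclei and 53.2% of other nuclei, and in 31.4% of 242 nuclei rich in NTRK2 and NTRK3, the neurotrophin receptors of touch and position-sense neurons, which are not known for TAC1. The unthinned shares were 95.5% in ADCYAP1/GAL nuclei and 78.3% in other nuclei, at median depths of 5303.5 and 6473 UMIs, with 6308.5 UMIs in the NTRK2 NTRK3 nuclei.

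NECTIN3, a cell adhesion protein, was at 667, 809, 797 and 761 CPM in libraries 1, 3, 5 and 6 of the ADCYAP1/GAL nuclei, against 191, 224, 254 and 356 CPM in other nuclei. It was the evenest of the marker genes across libraries, and pooled it was 2.99-fold higher (2.81 to 3.18). OPRK1, the kappa opioid receptor gene, was at 22.3, 32.5, 60.6 and 49.2 CPM, against 5.17, 3.24, 11.99 and 28.8 CPM, and 2.84-fold higher in all (2.13 to 3.75). Its pooled log2 ratio of 1.51 was 2.43 without library 6, 2.15 as a mean within libraries and 3.46 without the IL31RA and TRPM8 limits.

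SCN10A, a sodium channel of nociceptors, was 1.34-fold higher (660 against 494 CPM; 1.26 to 1.42). TRPV1, the capsaicin receptor, showed no difference beyond counting error at 27.5 against 25.9 CPM, a ratio of 1.06 (0.778 to 1.42), though its log2 ratios within libraries 1, 3, 5 and 6 were all above 0, at 0.52, 0.53, 0.17 and 0.43. The pooled log2 ratio of TRPV1 was 0.08, against 0.73 without the IL31RA and TRPM8 limits and -0.94 after thinning to 2000 UMIs, so its direction depended on the setting. SCN11A, the other sodium channel of C fibres, was lower at 209.5 against 315 CPM, 0.666-fold (0.599 to 0.738). TAC1 was thus at least 2-fold above the level of other nuclei, while TRPV1 and SCN11A were not. CALCA and CALCB were not analysed here.

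NEFH and PIEZO2 were low. NEFH, the heavy neurofilament subunit of large myelinated neurons, was at 443 against 1302 CPM, 0.341-fold (0.317 to 0.365), and PIEZO2, the touch channel, at 81.0 against 746 CPM, 0.109-fold (0.0919 to 0.127). In libraries 1, 3, 5 and 6 PIEZO2 was at 87.0, 39.9, 147 and 101 CPM, against 388, 526, 1256 and 932 CPM in other nuclei, with no overlap. Some nuclei did carry genes of other classes: 22 of the 290 (7.59%) had 3 or more UMIs of NTRK2 and NTRK3, against 34.3% of other nuclei, 1 had 3 or more of GFRA2 and LPAR3, against 14.6%, and 25 (8.62%) had 3 or more of KIT, taken here as a marker of A-fibre nociceptors, against 9.36%. No doublet caller was run, and the part of mixed droplets in these values was not tested.

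Over the whole table, 13212 genes had at least 50 UMIs in both kinds of nuclei together. Of these, 251 (1.9%) were at least 2-fold higher in ADCYAP1/GAL nuclei and 1351 (10.2%) at least 2-fold lower, and the median log2 ratio was -0.13. Higher in every library that gave a value were 235 genes (1.78%), and lower in every library 935 (7.08%). So more genes were called low than high in this comparison. The minimum of 50 UMIs counts both groups together, and the other nuclei held 14725587 UMIs against 1889885. At the same CPM, a gene found only in other nuclei thus met the minimum more easily than a gene found only in ADCYAP1/GAL nuclei. The part of this in the 2 counts was not tested. The counts and medians of the gene lists below are to be read against these shares and this median.

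Outside the rule genes, BAALC, a membrane-associated protein described in brain and leukaemia, had the highest ratio. It was at 46.8, 38.4, 34.7 and 134 CPM in libraries 1, 3, 5 and 6, against 4.06, 7.14, 15.2 and 14.8 CPM in other nuclei, 5.74-fold higher over all (4.51 to 7.29). PROKR2, a receptor for prokineticins, peptides that sensitize rodent nociceptors, was at 62.5, 62.0, 4.33 and 18.7 CPM, against 12.6, 13.9, 2.77 and 3.59 CPM, 5.55-fold (4.21 to 7.28). BAALC was highest in library 6 and PROKR2 in libraries 1 and 3, and both were higher than in other nuclei in each of these libraries, with 1 UMI behind the PROKR2 value of library 5.

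PTGER4, a receptor for prostaglandin E that raises cyclic AMP, was at 69.1, 45.8, 73.6 and 115 CPM in libraries 1, 3, 5 and 6, against 12.2, 11.0, 18.4 and 25.2 CPM, 4.11-fold higher (3.31 to 5.09). Its within-library log2 ratios of 2.02 to 2.51 were the closest together among the 12 highest genes with a value in all 4 libraries. PLCL1, a phospholipase C-like protein without catalytic activity, was at 274, 422, 368 and 253 CPM, against 53.5, 88.6, 83.0 and 115 CPM, 3.96-fold (3.59 to 4.36). KRT14, a keratin best known from basal epithelium, was 4.33-fold higher (3.61 to 5.20), with 265 CPM in library 1 and 21.7 to 60.9 CPM in libraries 3, 5 and 6, and its log2 ratio of 2.12 was 1.42 without library 1.

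Others of the 12 highest had fewer UMIs. Among them were SYT17, a synaptotagmin (4.45-fold), PLCZ1 and TESMIN, known from germ cells (4.07-fold and 4.06-fold), ALKAL2, a ligand of the receptor ALK (3.99-fold), ANGPTL1 (3.90-fold) and SHISA3 (3.90-fold). Of the ALKAL2 UMIs 1 nucleus held 23.8%. The log2 ratio of ANGPTL1 was 1.96 in all and 1.29 without library 1.

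**Figure D3:**
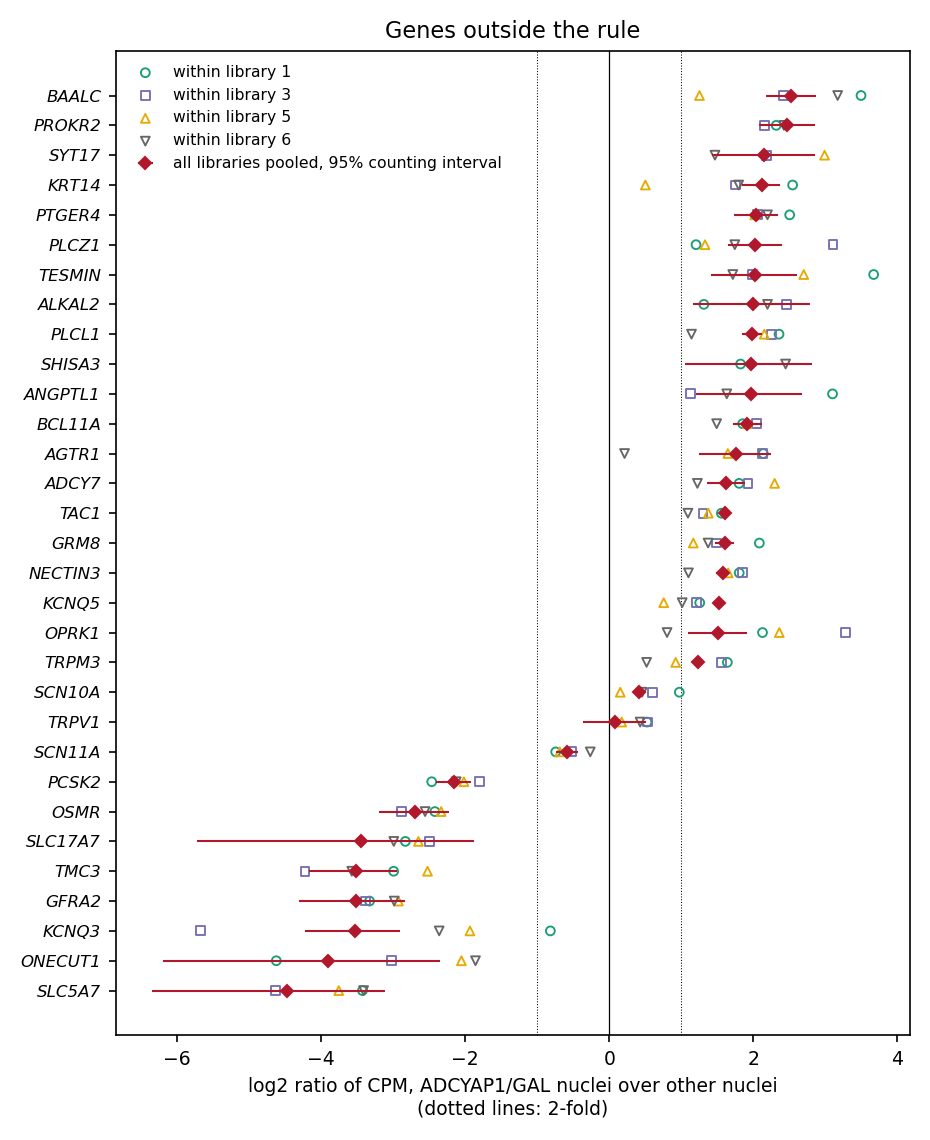
Log2 ratio of CPM, ADCYAP1/GAL nuclei over other nuclei (x axis), for genes outside the rule (y axis); red diamonds with bars are all libraries pooled with the 95% counting interval, open symbols are the ratios within libraries 1, 3, 5 and 6, and dotted lines mark 2-fold. TAC1 and NECTIN3 lie between the dotted line and 2 in all 4 libraries, TRPV1 lies near 0 pooled and between 0.17 and 0.53 within libraries, and GFRA2 lies near -3 in all 4.

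Among receptors for inflammatory and pain-producing mediators, 4 of 43 measured genes were at least 2-fold higher and 13 lower, with a median log2 ratio of -0.36. PTGER4 led the list. AGTR1, a receptor for angiotensin, was 3.39-fold higher at 26.5 against 7.81 CPM (2.38 to 4.76), with a log2 ratio of 2.14, 2.13 and 1.65 in libraries 1, 3 and 5 and 0.21 in library 6. PTGIR, the prostacyclin receptor, was 2.76-fold higher at 41.8 against 15.1 CPM (2.11 to 3.58), with log2 ratios of 1.29 to 1.91 in the 4 libraries. Thus 2 prostanoid receptors that act through cyclic AMP, PTGER4 and PTGIR, were higher than in other nuclei in each of the 4 libraries. OSMR, the oncostatin M receptor of itch neurons, was 0.155-fold (20.1 against 130 CPM; 0.109 to 0.213) and CYSLTR2, a leukotriene receptor, 0.168-fold (4.23 against 25.3 CPM).

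Of 19 opioid and other inhibitory receptors, 2 were at least 2-fold higher, OPRK1 and GRM8, and 8 lower, with a median log2 ratio of -0.79. GRM8, a metabotropic glutamate receptor, was at 241, 546.5, 247 and 316 CPM in libraries 1, 3, 5 and 6, against 56.9, 194, 111 and 122 CPM, 3.03-fold higher (2.78 to 3.31). GRM4, another receptor of that family, was 0.236-fold (10.1 against 42.6 CPM). OPRM1, the mu opioid receptor gene, was 1.31-fold higher (327 against 250.0 CPM; 1.20 to 1.42), and OPRD1, the delta receptor gene, 0.608-fold (17.5 against 28.7 CPM), with a log2 ratio of -0.72 in all and -1.02 without library 6. The opioid receptors therefore did not move as 1 group.

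Among ion channels more genes were at least 2-fold lower than higher. The lower part was larger than over all genes, where 10.2% were lower and 1.9% higher with a median log2 ratio of -0.13. Of 61 potassium and HCN channel genes 4 were at least 2-fold higher and 26 lower, with a median log2 ratio of -0.73, and of 14 sodium channel genes 0 were higher and 7 lower, with a median of -0.92. KCNQ5, a subunit of the M-type potassium current, was 2.88-fold higher at 1406 against 488 CPM, with 16.1% of its UMIs from 1 nucleus, while its relative KCNQ3 was low (11.11 against 128 CPM, 0.0866-fold). The pooled log2 ratio of KCNQ5 (1.53) was above those within libraries 1, 3, 5 and 6, which were 1.26, 1.21, 0.76 and 1.01. The KCNQ3 log2 ratio was -3.53 in all and -2.72 without library 4. Within libraries 1, 3, 5 and 6 it was -0.82, -5.68, -1.93 and -2.36, so its size differed widely between libraries. KCNC2 was 2.46-fold higher and KCNS2, a silent subunit, 2.98-fold. The low sodium channel genes included SCN1A, SCN2A and SCN8A at 0.342-fold, 0.201-fold and 0.419-fold, channels also widely used by brain neurons.

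Of 35 transduction channel genes 3 were at least 2-fold higher and 8 lower, with a median log2 ratio of -0.29. TRPM3, a heat-activated cation channel in mouse nociceptors, was at 1224, 2464, 1395 and 1525 CPM in libraries 1, 3, 5 and 6, against 393, 838.5, 737 and 1065 CPM, 2.34-fold higher (2.25 to 2.43), and its log2 ratio of 1.23 was 0.95 without library 3. TRPC4 was 2.65-fold higher. TRPA1, the irritant receptor, was 1.66-fold higher (144 against 86.7 CPM; 1.45 to 1.89) but not in library 6, where its log2 ratio was -0.31, and pooled it was 1.37 without library 6, 1.65 without the IL31RA and TRPM8 limits and 1.15 after thinning, in place of 0.73. TMC3 (0.0872-fold) and TRPC6 (0.0934-fold) were among the low ones, with a TRPC6 log2 ratio of -3.42 in all -4.02 without library 6 and -1.60 without the 2 limits. Of 25 calcium channel genes 2 were higher, the ryanodine receptor RYR2 (2.06-fold) and the auxiliary subunit CACNG4 (2.18-fold), and 8 lower, with a median of -0.43. Both of these higher calls sat near the limit, with log2 ratios of 0.92 for RYR2 without library 3, 0.98 without library 2, and for CACNG4 0.93 without library 4 and 0.68 with limits of 5 UMIs and 10 per 10000.

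Few genes of the neuropeptide list, which leaves out the rule genes ADCYAP1 and GAL, had enough UMIs: 7 of 30 in the table. Of these TAC1 was at least 2-fold higher and CBLN2 lower, the latter on 2 UMIs against 203. NPPB, the natriuretic peptide of itch neurons in mouse, was 1.29-fold higher (246 against 190 CPM), and NMB 0.541-fold (98.9 against 183 CPM), with a log2 ratio of -0.89 that was -1.31 without library 1 and -1.02 without library 6. PENK, VIP and CCK had 0 UMIs in the 290 nuclei, against 10, 1 and 3 UMIs in the other nuclei. Of 22 genes for peptide processing and secretory granules 1 was higher and 3 lower, with a median log2 ratio of 0.08. SYT4 was 2.09-fold higher, and its log2 ratio of 1.06 was 0.92 without library 1, 0.95 without library 4, 0.95 without library 6 and 0.92 after thinning. SCG2, a granin of dense-core vesicles, was 1.93-fold (1.73 to 2.15), with a log2 ratio of 0.95 that was 1.10 without library 2 and 1.11 without library 3. PAM, the enzyme that amidates peptide ends, was 1.76-fold higher (859 against 489 CPM). PCSK2, a prohormone convertase, stood opposite at 60.2, 85.7, 91.0 and 75.0 CPM in libraries 1, 3, 5 and 6, against 339, 301, 377 and 332 CPM, 0.224-fold in all (0.188 to 0.264), whereas the related convertase PCSK1 was at 35.5 against 31.8 CPM (1.11-fold; 0.848 to 1.44).

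Of 17 receptors for peptides 0 were higher and 6 lower, with a median log2 ratio of -0.14. The PACAP receptor gene ADCYAP1R1 had 2 UMIs in the ADCYAP1/GAL nuclei and 10 in the other nuclei, and the galanin receptor gene GALR1 had 2 and 5, so neither could be compared at this depth. TACR1, the substance P receptor gene, was at 3.17 against 15.7 CPM (0.202-fold), on 6 UMIs against 231, and its log2 ratio of -2.30 was -1.70 without library 3, -3.08 without library 5 and -0.80 after thinning. The medians of the neuropeptide and peptide receptor lists rest on few genes and were -0.87 and -0.90 without library 1. For peptide receptors the median was also -0.75 without library 5 and -0.77 without library 6.

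In cyclic AMP and kinase signalling 4 of 57 genes were higher and 6 lower, with a median log2 ratio of -0.13, against -0.13 over all genes. The 4 were ADCY7, an adenylyl cyclase (86.2 against 28.0 CPM, 3.08-fold; 2.56 to 3.70), PRKG2, a cyclic GMP-dependent kinase (2.97-fold), PDE5A, a cyclic GMP phosphodiesterase (2.56-fold) and PRKAR2B, a regulatory subunit of protein kinase A (2.50-fold). ADCY7 stood at 93.7, 73.9, 121 and 77.3 CPM in libraries 1, 3, 5 and 6, against 27.0, 19.5, 24.9 and 33.5 CPM in other nuclei, with no overlap. Of 37 genes for RGS proteins and G protein signalling 3 were higher, PLCL1, RGS16 (2.28-fold) and RGS20 (2.10-fold), and 6 lower, with a median of -0.18. The RGS20 log2 ratio of 1.07 was 0.93 without library 4 and 0.65 without the IL31RA and TRPM8 limits.

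Of 85 transcription factor genes 6 were higher and 23 lower, with a median log2 ratio of -0.13, against -0.13 over all genes. BCL11A, a zinc finger repressor, was at 125, 173, 99.6 and 131 CPM in libraries 1, 3, 5 and 6, against 34.7, 41.8, 26.7 and 46.9 CPM, 3.78-fold higher (3.28 to 4.34). Its relative BCL11B was 2.76-fold higher at 23.3 against 8.42 CPM (1.91 to 3.93), POU4F3 2.31-fold, the glucocorticoid receptor NR3C1 2.16-fold, FOS 2.16-fold on 20 UMIs and ZEB2 2.07-fold. Without library 3 the log2 ratios of FOS, NR3C1 and ZEB2 were 0.61, 0.99 and 0.97 in place of 1.11, 1.11 and 1.05, and without library 4 that of POU4F3 was 0.93 in place of 1.21. After thinning to 2000 UMIs the log2 ratio of BCL11B was 0.46 in place of 1.47, and those of FOS, POU4F3, NR3C1 and ZEB2 were 0.68, 0.81, 0.82 and 0.93, so none of these 5 passed 2-fold there. Factors of the whole nociceptor lineage differed little: PRDM12 was at 91.0 against 81.6 CPM (1.11-fold; 0.945 to 1.31) and RUNX1 at 237 against 232 CPM (1.02-fold; 0.921 to 1.12). ONECUT1 was near absent with 3 UMIs (0.0666-fold), and so was RUNX3, a factor of proprioceptors, with 1 UMI against 82. The log2 ratio of ONECUT1 was -3.91 in all and -5.19 without library 6, and that of RUNX3 -3.40 in all, -2.78 without library 3 and -1.67 without library 6. After thinning they were -1.76 for ONECUT1 and -0.25 for RUNX3.

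Of 39 growth factor receptor genes 2 were higher, among them BMPR1B (2.27-fold), and 5 lower, with a median log2 ratio of 0.08. Without library 3 the log2 ratio of BMPR1B was 0.90, and without the IL31RA and TRPM8 limits 0.85, in place of 1.18, and without library 3 that of NTRK2 was -0.93 in place of -1.21. NTRK3 was 0.148-fold (34.4 against 232 CPM), NTRK2 0.433-fold (108 against 249 CPM) and GFRA2, the neurturin receptor gene, 0.0870-fold (8.99 against 103 CPM). RET, the shared signalling receptor of the GDNF family, was 0.733-fold (364 against 496 CPM). Of 82 adhesion and guidance genes 8 were higher and 27 lower, with a median of -0.37. The highest were SEMA3D, a secreted guidance protein (3.14-fold; 2.82 to 3.50), and PTPRD, a synaptic receptor phosphatase (2.83-fold; 2.62 to 3.06). TENM1, SEMA3C, CNTN5, TENM2 and CNTN4 followed at 2.45-fold to 2.07-fold, and without library 3 the log2 ratio of CNTN4 was 0.80 in place of 1.05. Without the IL31RA and TRPM8 limits that of TENM2 was 0.94 in place of 1.18. Of 40 genes for ligand-gated channels and their partners 0 were higher and 15 lower, with a median of -0.70, among them the vesicular glutamate transporter SLC17A7, with 3 UMIs against 254 (log2 ratio -3.44, and -4.31 without library 3).

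Lists that mark other cells were read the same way. Of 11 measured large-fibre markers 10 were at least 2-fold lower, and of 8 markers of GFRA2 LPAR3 nuclei 6 were lower, with median log2 ratios of -1.55 and -1.95. Of 6 markers of IL31RA OSMR nuclei 3 were lower and of 3 of TRPM8 nuclei 1, with medians of -0.50 and -0.84. Of 5 markers of A-fibre nociceptors 1 was higher and 2 lower, with a median of 0.38. KIT of that list was at 123 against 94.1 CPM (1.31-fold; 1.13 to 1.501). Summed large-fibre markers were at 1072 to 3468 CPM over libraries in ADCYAP1/GAL nuclei, against 3521 to 13501 CPM in other nuclei, with CALB1 and HEG1 at 0. Markers of non-neuronal cells were at like levels on both sides: satellite glia 925 against 904 CPM, Schwann cells 1029 against 967, endothelial cells 115 against 103, fibroblasts 215 against 179, mural cells 30.7 against 30.4 and immune cells 98.9 against 110 CPM. The glial sum varied more between libraries than between the kinds of nuclei, at 399 to 2315 CPM in ADCYAP1/GAL nuclei and 344 to 2356 CPM in other nuclei. In these lists 2 genes passed 2-fold, PRX of Schwann cells upward and FABP7 of satellite glia downward. The log2 ratio of PRX was 1.42 in all, 0.46 without library 3 and 0.77 without the IL31RA and TRPM8 limits, and that of FABP7 was -0.36 without library 1 and -0.17 without those limits.

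Other classes of nuclei were then taken one at a time, though none was made of nuclei rich in KIT. These were 256 nuclei with IL31RA, a receptor of itch neurons, 191 with TRPM8, the menthol and cold receptor, 115 with GFRA2 and LPAR3, and 242 with NTRK2 and NTRK3. Against IL31RA nuclei 176 genes (1.81%) were at least 2-fold higher and 396 (4.07%) lower, and against TRPM8 nuclei 236 (2.54%) and 782 (8.42%). Against GFRA2 LPAR3 nuclei 772 (9.1%) were higher and 766 (9.03%) lower, and against NTRK2 NTRK3 nuclei 511 (5.41%) and 1158 (12.3%). The IL31RA limit bears on this comparison: 57 of the 256 IL31RA nuclei had passed the sum and the rate of the 6 genes and were turned away by the limit, against 8 of the 191 TRPM8 nuclei and 0 in the other 2 classes. Against the 199 IL31RA nuclei without those 57, a setting added after the data were seen, 354 of 9050 genes (3.91%) were higher and 446 (4.93%) lower. The numbers of genes tested differed, from 8481 to 9740, and so did median depth, from 6308.5 UMIs in NTRK2 NTRK3 nuclei to 10220.5 UMIs in IL31RA nuclei.

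TAC1 was at 3711 CPM in ADCYAP1/GAL nuclei and 3039 CPM in IL31RA nuclei, 1.22-fold (1.18 to 1.26) and higher in 3 of 4 libraries, against 424 CPM in TRPM8, 132 in GFRA2 LPAR3 and 221 in NTRK2 NTRK3 nuclei. OPRK1 was likewise at 37.0 and 35.2 CPM (1.05-fold; 0.772 to 1.42), with 3.29, 4.41 and 0.813 CPM in the other 3 classes. NECTIN3 was 1.85-fold higher than in IL31RA nuclei (739 against 399 CPM; 1.72 to 2.00) and higher in all 4 libraries. TRPV1 and SCN11A ran the other way, at 0.625-fold (0.447 to 0.862) and 0.341-fold (0.305 to 0.379), both lower in all 4 libraries. OSMR was 0.0760-fold (20.1 against 265 CPM). Against the 199 IL31RA nuclei that had not passed the sum and the rate, TAC1 was 1.33-fold higher (1.28 to 1.37), OPRK1 5.35-fold (3.08 to 9.87) and NECTIN3 3.68-fold (3.31 to 4.10), so the like level of OPRK1 was not seen without the nuclei that the limit had turned away. TRPV1 there was at 0.723-fold (0.503 to 1.03).

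At least 2-fold higher than in each of the 4 classes were 35 genes, or 0.421% of 8306 tested in all 4, and 3 of them were rule genes. At least 2-fold lower than in each were 98 (1.18%). The 35 included PROKR2 at 49.7 CPM, against 7.04 in IL31RA, 10.7 in TRPM8, 0 in GFRA2 LPAR3 and 2.84 in NTRK2 NTRK3 nuclei. With the 0 set to a floor of 3 counts, its ratio to GFRA2 LPAR3 nuclei was 26.3, a value set by the floor and not a lower limit. PTGER4 was at 70.9 CPM, against 30.8, 6.16, 6.30 and 12.6 CPM in the same order, and BAALC at 65.1 CPM, against 15.8, 13.1, 6.30 and 14.6 CPM. PLCL1, KRT14, AGTR1, FGL2, CAVIN3, UPP1, GADD45G, ATP1B2 and MMP16 were also among them. With libraries 1, 3, 4, 5 or 6 left out in turn, 23, 21, 33, 32 and 28 of the 35 genes were still called. AGTR1 was lost without library 1 and without library 3, PLCL1 without library 3, CAVIN3 without library 1, and ATP1B2 without library 1, 4 or 6, while PROKR2, PTGER4, BAALC and KRT14 stayed.

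Genes below all 4 classes included PIEZO2 at 81.0 CPM, against 174 in IL31RA, 747 in TRPM8, 2303 in GFRA2 LPAR3 and 1141 in NTRK2 NTRK3 nuclei. PCSK2 was at 75.1 CPM, against 552, 292, 307 and 271 CPM. SCN2A, the GABA receptor subunit GABRA2 and the adhesion gene CDH9 were also below all 4. The 98 genes include GFRA2 and NTRK3, which chose 2 of the classes and are not counted as findings. BCL11A and GRM8 missed the higher set only against TRPM8 nuclei, where BCL11A was 1.96-fold (1.64 to 2.36) and GRM8 1.85-fold (1.64 to 2.07) higher.

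**Figure D4:**
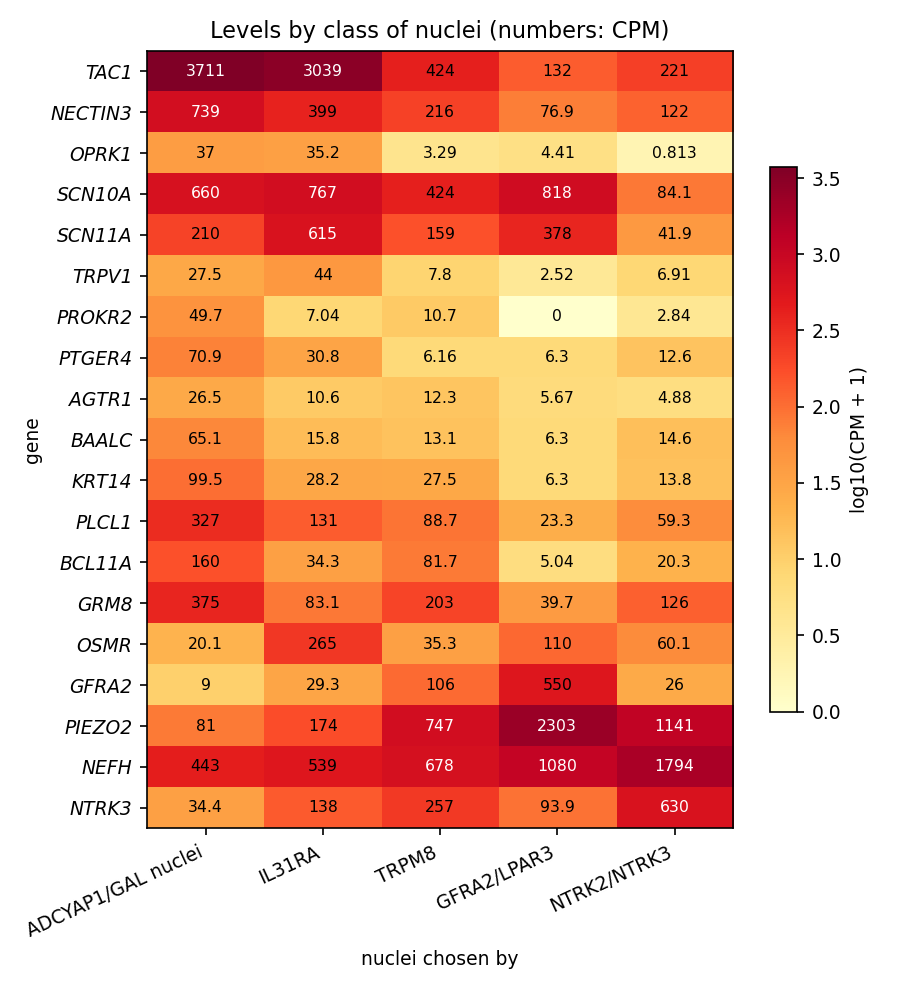
CPM of 19 genes (rows) in 5 classes of nuclei (columns, ADCYAP1/GAL nuclei at the left), printed in each cell and coloured by log10(CPM + 1). TAC1 and OPRK1 are less than 2-fold apart from IL31RA nuclei, PROKR2, PTGER4 and BAALC are highest in ADCYAP1/GAL nuclei, and PIEZO2 is lowest there; GFRA2 and NTRK3 chose 2 of the classes.

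The 290 nuclei differed among themselves in GAL. There were 124 with 2 or more GAL UMIs and 89 with 0, at median depths of 5554 and 5434 UMIs, and this division was made after the data were seen. The libraries were not alike in it: libraries 1, 3, 4, 5 and 6 gave 46, 55, 3, 5 and 15 nuclei with 2 or more GAL UMIs, against 18, 32, 1, 24 and 14 with 0. Nuclei without GAL entered by the other 5 genes, so RGS8, FRK and ADCYAP1 levels between the groups follow in part from the rule. IL31RA, which the rule limits, was at 45.4 CPM with 2 or more GAL UMIs and 108 CPM with 0 (0.420-fold, 0.275 to 0.636). Its log2 ratios in libraries 1, 3 and 6 were -1.34, -0.05 and -1.19. The part of IL31RA in the differences below was not tested. Of 5286 genes tested 74 (1.4%) were at least 2-fold higher and 61 (1.15%) at least 2-fold lower with GAL.

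The genes of this and the next paragraph were chosen for 1 direction within libraries 1, 3 and 6, the only ones with enough nuclei. Their agreement in direction is therefore no result. ATP1B2, a subunit of the sodium pump, was at 156 CPM with 2 or more GAL UMIs, against 43.2 CPM with 0, 3.61-fold higher (2.33 to 5.83), and its log2 ratio of 1.85 was 1.18 without library 1. FSCN1, an actin-bundling protein, was at 77.5 against 27.0 CPM (2.87-fold; 1.63 to 5.40), CCND2 at 90.8 against 41.4 CPM (2.19-fold; 1.37 to 3.65) and IFNGR2, a subunit of the interferon gamma receptor, at 48.7 against 21.6 CPM (2.26-fold; 1.17 to 4.69). The log2 ratio was only 0.11 for FSCN1 in library 6 and 0.11 for IFNGR2 in library 3. RPL15 was 3.14-fold, RABAC1 2.41-fold, FGL2 2.23-fold and NCAM2 2.20-fold higher. The pooled log2 ratios of RPL15 (1.65) and RABAC1 (1.27) were above those within each library, which were 0.69, 1.38 and 1.32 for RPL15 and 0.56, 1.15 and 0.64 for RABAC1 in libraries 1, 3 and 6. Of these, log2 ratios fell below 1 for NCAM2 (0.39) and FGL2 (0.90) without library 1 and for RABAC1 (0.96) and FGL2 (0.93) without library 5, and that of RPL15 was 2.26 without library 1.

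Lower with GAL were PAPPA, a protease that frees insulin-like growth factor, at 18.8 against 103 CPM (0.184-fold; 0.100 to 0.320), and ANO3, an anoctamin, at 26.6 against 110 CPM (0.242-fold; 0.144 to 0.394). FGF14, a partner of sodium channels, had the most UMIs among them and was at 658 against 1728 CPM (0.381-fold; 0.343 to 0.422), with log2 ratios of -1.70, -1.75 and -0.99 in libraries 1, 3 and 6. ATP8B1, RGSL1, MYO1E, TADA2A and CORO6 followed at 0.323-fold to 0.400-fold. In library 6 the log2 ratios of RGSL1, MYO1E and CORO6 were only -0.13, -0.12 and -0.02. Without library 5 the CORO6 log2 ratio was -0.64 in place of -1.32, without library 6 it was -2.00, and without library 3 that of PAPPA was -1.65 in place of -2.45.

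The marker genes given here were less than 2-fold apart across the division. TAC1 was at 3607 CPM with 2 or more GAL UMIs and 4424 CPM with 0 (0.815-fold; 0.774 to 0.860), lower in libraries 1 and 3 and higher in library 6. NECTIN3 was 0.890-fold (0.786 to 1.01), PTGER4 1.18-fold (0.788 to 1.80) and OPRK1 0.953-fold (0.526 to 1.77), none beyond counting error. BCL11A was 1.95-fold higher with GAL (189 against 97.2 CPM; 1.43 to 2.70), with log2 ratios of 0.87, 0.15 and 0.96 in libraries 1, 3 and 6, and its pooled log2 ratio of 0.96 was 1.51 without library 3 and 1.04 without library 1.

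**Figure D5:**
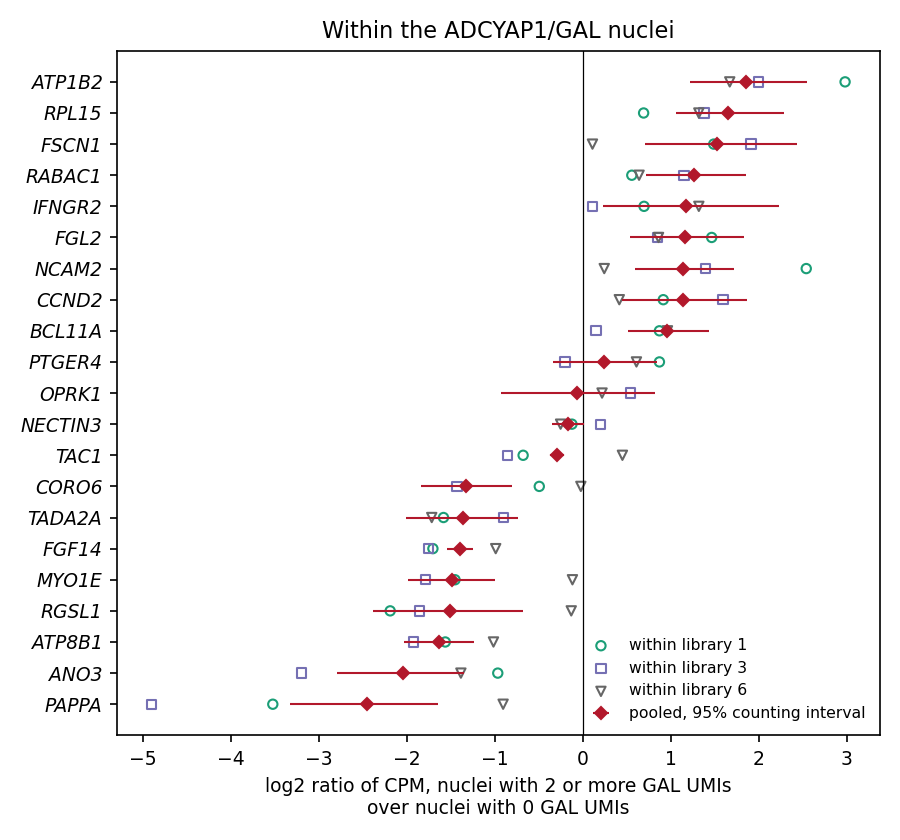
Log2 ratio of CPM within the ADCYAP1/GAL nuclei, 124 nuclei with 2 or more GAL UMIs over 89 nuclei with 0 (x axis), by gene (y axis); red diamonds are pooled with 95% counting intervals and open symbols are libraries 1, 3 and 6. ATP1B2 lies highest and PAPPA lowest, and the bars of PTGER4, OPRK1 and NECTIN3 cross 0.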

How the data were processed

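The authors deposited 1 table of raw UMI counts per gene and nucleus, with no normalization (per the file headers and values). The submitters' processing notes name the tools Cell Ranger 6.0.1 and Seurat and the pig build Sscrofa11.1, without saying what each did. Details of how the authors filtered nuclei were not given in the sources used here. Libraries were made with a 3' kit from nuclear RNA, so counts favour 3' ends and unspliced transcripts, and overlapping genes could not be told apart. Of 14012 rows with an Ensembl identifier 773 received a symbol from a gene name table. The table held 30477 genes and 17277376 UMIs, 501 to 338372 per nucleus.

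The 290 nuclei, the gene lists and the tests were chosen with earlier results of these data known. UMIs were summed per group and gene and divided by all UMIs of the group (CPM). Ratios of CPM carry exact conditional binomial 95% intervals, CPM exact Poisson intervals and shares exact Clopper-Pearson intervals, all for counting error only. A gene with at least 50 UMIs over both groups was called at a ratio of 2 or more, or 0.5 or less; a group at 0 was set to a floor of 3 counts. Within-library ratios needed at least 10 nuclei per side and 10 UMIs. Shares of nuclei were compared after thinning to 2000 UMIs, which left out 14 ADCYAP1/GAL nuclei and 0 others.

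Genes named were the 12 highest and 10 lowest ratios outside the rule and limit genes with 1 direction in every library and at most 25% of the UMIs of the higher side from 1 nucleus, up to 2 highest and 1 lowest per list under the same conditions, and TAC1, OPRK1, NECTIN3, TRPV1, SCN10A and SCN11A. Some genes that these rules take are not reported here. Other genes were named after their values were seen, as were the NTRK2 NTRK3 class and the division by GAL, where the 8 highest and 8 lowest ratios past 2-fold under the same conditions were taken. Python 3.11.15, numpy 2.4.6, pandas 2.3.3 and scipy 1.17.1 were used. The ratios were tested on simulated Poisson counts. These had a common gene profile for all nuclei, apart from genes raised or lowered on purpose, and no differences between libraries. They therefore cannot show how the calls behave where libraries differ. Alternatives were each library left out, other depth limits, other totals, other minimum counts and other forms of the rule.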

Additional observations from a re-analysis of the deposited data

How the results depend on the processing

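The counts of genes depended on the settings: 251 genes at least 2-fold higher became 380 with the mean of within-library ratios, 393 at a minimum of 20 UMIs, 143 at 200 UMIs and 830 with no minimum, and 1351 lower became 754 after thinning, 598 at 200 UMIs and 2100 with no minimum. With 1 library left out the counts were 231 to 283 higher and 1067 to 1513 lower. The share of 13.2% was 6.396% with limits of 5 UMIs and 10 per 10000, 16.4% without the IL31RA and TRPM8 limits, 16.6% among nuclei of at least 2000 UMIs, 9.31% after thinning, and 11.8% to 14.2% with 1 library left out. For rule genes in nuclei chosen by the other 5, the log2 ratio of GAL (3.06) was 2.66 as a mean over nuclei, 2.73 as a mean within libraries, 2.72 after thinning and 2.84 to 3.19 with 1 library left out; that of FRK (2.03) was 2.34 after thinning and 1.66 to 2.63; that of RGS8 (1.45) was 2.27 within libraries and 1.19 to 2.07; that of NPNT (2.73) was 2.55 to 3.12. Over 96 named genes and 23 alternatives, 1972 of 2207 values stayed within the counting interval of the reported ratio, 235 moved outside it and 0 called ratios changed sign. Thinning moved 39 of the 96 genes out of it and ended the 2-fold call of 12, and dropping the IL31RA and TRPM8 limits ended that of 8. Without the class nuclei that had passed the sum and the rate, chosen after the data were seen, 354 genes in place of 176 were higher than in IL31RA nuclei. Genes below about 3 UMIs in the ADCYAP1/GAL nuclei, such as KCP, SKOR2, GNG4 and DRAXIN, have ratios that 1 library or nucleus can change, and genes under 50 UMIs in all were not compared at this depth. No paired analysis was possible because the study has 1 group and the libraries could not be tied to animals.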

Other observations

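The nuclei that the IL31RA and TRPM8 limits turned away also carried the peptide genes. ADCYAP1 is 1 of the genes of the rule, so its levels here are a description. In the 61 nuclei with 3 or more IL31RA UMIs that had passed the sum and the rate, ADCYAP1 was at 364 CPM and TAC1 at 3283 CPM. In the 12 with 2 or more TRPM8 UMIs, 4 of which were also among the 61, ADCYAP1 was at 390.3 CPM and TAC1 at 2305 CPM. The 290 nuclei kept had 430.2 CPM of ADCYAP1 and 3711 CPM of TAC1. The limits are absolute numbers of UMIs, and the nuclei turned away were deeper, with medians of 14680 UMIs for the IL31RA limit and 9802.5 for the TRPM8 limit, against 5303.5 in those kept. The part of depth in who was turned away was not tested.

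Among the nuclei kept, the 187 with 0 IL31RA UMIs had ADCYAP1 at 462 CPM, the 70 with 1 had 424 CPM and the 33 with 2 had 299 CPM. TAC1 in the same 3 sets was at 3248, 5021 and 3370 CPM, in no such order. Their median depths were 4790, 5747.5 and 6460 UMIs.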
